A study of Mus musculus with 24 samples.

Results

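Mouse retinal organoids (MROs) are small pieces of retinal tissue that form in culture from mouse embryonic stem cells. Here 6 individual MROs at day 25 (D25) of differentiation were compared with 6 individual MROs at D20, over every annotated gene of the deposited count tables. All MROs came from wildtype E14Tg2a mESC, labelled as the control genotype, in 1 independent experiment. The labels name water, a solvent, as the sole addition for every MRO, but only the titles of D22, D25 and D30 mark a control (Ctrl), so age and any difference in time with solvent cannot be told apart. D20, D22, D25 and D30 were sampled, with n = 6 MRO and 1 RNA library per MRO at each timepoint, and a single cell line and experiment limit the results to this culture. A gene was called when its adjusted p was below 0.01 in edgeR's quasi-likelihood test, with Benjamini-Hochberg adjustment over all features tested. Of 16253 annotated genes tested, 2440 passed this threshold from D20 to D25 and in neither of the shorter steps, D20 to D22 and D22 to D25. They are referred to as genes missed by both steps.

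In the mouse retina, a pool of dividing progenitors produces ganglion cells, horizontal cells, cones and amacrine cells early, and rods, bipolar cells and Müller glia late. Once the progenitors have divided for the last time, rods build an outer segment and a ribbon synapse, interneurons acquire their receptors and channels, and growth-related transcripts such as those of ribosomal proteins usually decline. Birth of cells ends within days, whereas the maturation of neurons and glia continues for longer.

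The libraries held 13634846 to 15793703 counted reads per MRO at D20 and 14524620 to 18078956 at D25, so that 3 counts correspond to at most 0.22 CPM, the count scaled to the counted reads of its library. Levels are given as normalized CPM, scaled by TMM. Defining markers of photoreceptors, progenitors, amacrine cells and Müller glia were present in both groups. The photoreceptor gene Crx had a median of 628 normalized CPM at D20 and 981 at D25, the progenitor gene Hes5 41.4 and 6.94, the amacrine gene Tfap2b 34 and 121, and the Müller gene Glul 194 and 168. The ganglion cell gene Pou4f2 stood at 6.26 and 1.61 and the bipolar cell gene Grm6 at 0 and 3.01, while the summed ganglion cell list had medians of 662 and 517 CPM and the bipolar list of 725 and 653. The summed amacrine and horizontal cell list had medians of 1230 and 1230 CPM and the Müller list of 1900 and 1980. Single markers thus need not follow their list. Lens genes stayed at a sum of at most 3.21 CPM in each MRO and pluripotency genes at 5.08. Some MROs stood apart. D25 replicate 1 had the highest summed level of the cortex-type neuron list (736 CPM, against 231 to 438 in the other D25 MROs) and of the ganglion cell list (1170 against 319 to 754). D25 replicate 3 was the highest D25 MRO for mitosis genes. In whole organoids, fewer cells of a type and less RNA per cell cannot be told apart.

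From D20 to D25, 4093 of the 16253 genes were called, which is 25.2% of those tested. At D25, 2405 of them (14.8%) were higher and 1688 (10.4%) were lower. Over the same genes, 540 were called between D20 and D22 and 1665 between D22 and D25. Of the 4093, 249 were called only in the first step, 1148 only in the second and 256 in both, and the remaining 2440 (15.0% of all genes tested) were missed by both. Thus 59.6% of the 5-day calls had no counterpart in either step, and this share was 52.3% among the rising and 70.0% among the falling genes. The missed genes split almost evenly, with 1259 (7.75% of those tested) higher and 1181 (7.27%) lower at D25. In the opposite case, 291 genes were called in a step but not over the 5 days.

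The missed genes changed moderately. Their median absolute log2 fold change over the 5 days was 0.75, or 1.68-fold, and 768 of them changed at least 2-fold. The median of their mean normalized counts was 383, against 470 over all called genes and 234 over all genes tested. For 1758 of them (72.0%), the 6 MROs of D25 did not overlap with the 6 of D20, whereas this held for 78.5% of all called genes and 22.6% of all genes tested. Passing the 5-day test itself favours such genes, so nothing is read from these shares. The median standard error was 0.16 on the log2 scale for the 5 days and for each step. For 2396 of the 2440, both steps went in the same direction, as for 3772 of the 4093 called and 8851 of the 16253 tested. The rule that defines the missed genes favours such agreement, so nothing is read from it. Without multiple-testing adjustment, 2367 had a p below 0.05 in at least 1 step and 705 in both.

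**Figure D1:**
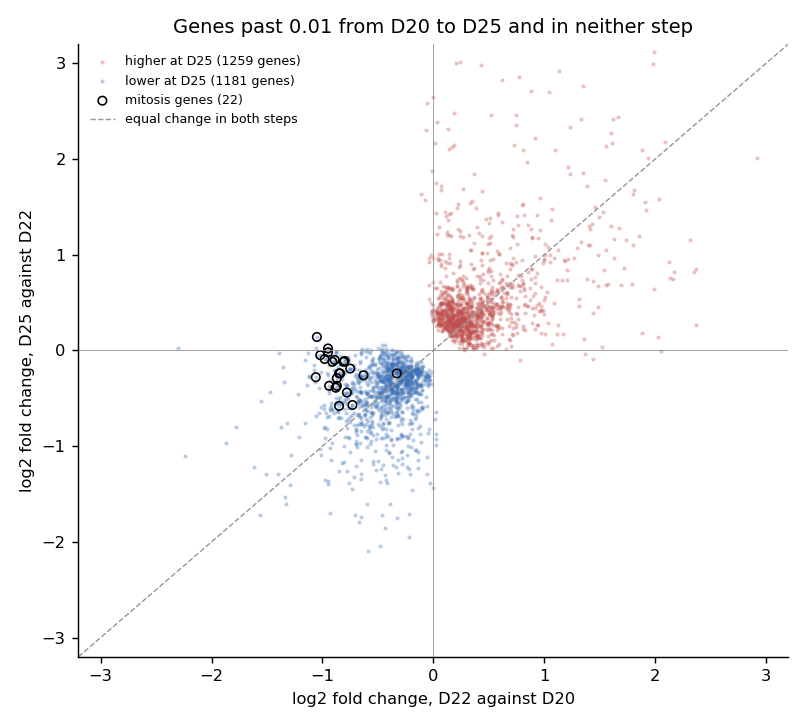
Each point is 1 of the 2440 genes missed by both steps, with the log2 fold change of the first step (D20 to D22) on the x axis and that of the second step (D22 to D25) on the y axis, red for genes higher and blue for genes lower at D25, and circles for 22 mitosis genes. Nearly all points lie in the quadrants where both steps have the same sign, which the choice of these genes favours. The circles lie to the left where most of the fall came in the first step, and 3 points lie outside the axes.

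Being missed by the steps did not by itself mean that a change was spread evenly. D22 marks 40% of the 5 days. At D22 the missed genes had reached a median of 47.4% of their 5-day log2 change, with quartiles of 33.6% and 60.5%. For 1839 genes this share was between 25% and 75%, for 365 it was below 25% and for 236 above 75%. The rising genes had reached a median of 44.7% and the falling genes 50%. Over all called genes the median was 42.4%, and 67.1% had a share between 25% and 75%, against 75.4% of the missed genes. A gene that changed mostly in 1 step is more readily called there, so the rule itself favours middle shares. These shares are ratios of estimates that share the D22 MROs, and were not tested.

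**Figure D2:**
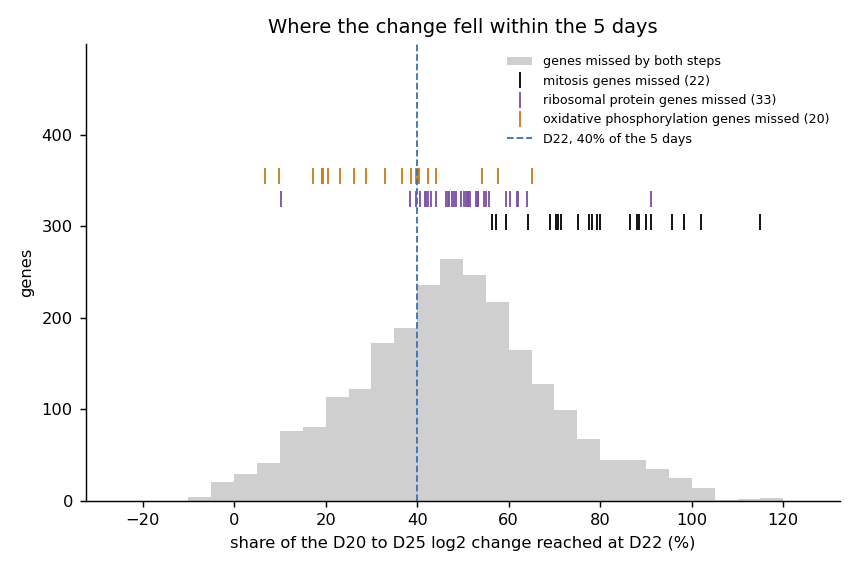
The histogram counts the genes missed by both steps by the share of their 5-day log2 change that had been reached at D22 (x axis, percent). The ticks above it give single genes of 3 lists, with 22 mitosis genes mostly to the right, 33 ribosomal protein genes near the middle and 20 oxidative phosphorylation genes mostly to the left.

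The threshold itself separated genes with near-identical values. Just inside it were Trappc11, a subunit of a trafficking complex, with 89.1 to 113 normalized CPM (medians at D20 and D25) and an adjusted p of 0.01 in the second step, Atrnl1 (54.9 to 70.5, 0.01) and Naa16, an acetyltransferase subunit (60.2 to 39.3, 0.01). Just outside it were the cullin gene Cul5 (208 to 294, 0.00998 in the second step), the myelin protein gene Pmp22 (5.46 to 8.98, 0.00993) and the transcription factor gene Mafk (12.3 to 7.45, 0.00991 in the first step). Trappc11 lost its 5-day call without D20 replicate 4, D25 replicate 3 or D25 replicate 6, with adjusted p values of 0.0105 to 0.0134.

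Genes of mitosis were the largest list whose calls were all missed by both steps. These genes encode the spindle, kinetochore and cytokinesis machinery and peak when a cell divides. Of 30 mitosis genes tested, 22 were lower at D25, none was higher and all 22 were missed by both steps, where 10.4% of all genes tested were lower and 7.27% were lower and missed. The list's median log2 fold change was -0.98, against 0.05 over all genes tested. The summed level of the list was 1720 to 2780 CPM at D20 (median 2530), 1010 to 2030 at D22 (1250), 435 to 1900 at D25 (1140) and 647 to 963 at D30 (724). D25 replicate 3 lay within the D20 range and D25 replicate 2 lay lowest.

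By these estimates, more of the change of the 22 genes lay in the first step. They had reached a median of 78.7% of their 5-day change at D22, and for 14 of them the share was above 75%. Their median log2 fold change was -0.87 in the first step and -0.24 in the second. An unadjusted p below 0.05 was reached by 21 in the first step and by 2 in the second, and 16 had an adjusted p below 0.05 in the first, but none was below 0.01. The split between the steps rested in part on single MROs and was not tested. Without D25 replicate 3, the share at D22 was 65.4%, with 5 genes above 75% and a second step of -0.42. Without D25 replicate 2, D25 replicate 5 or D22 replicate 5 the second step was -0.09, -0.15 and -0.04, and the number of genes above 75% was 9 without D22 replicate 1 or D22 replicate 3.

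Kif23 (ENSMUSG00000032254, chromosome 9 from 61915905 to 61946774 of GRCm38), a kinesin that acts in cytokinesis, had 38.1 to 53.1 (median 48.8) normalized CPM at D20, 19.2 to 42 (median 21.5) at D22 and 6.97 to 32.2 (median 17.3) at D25. All 6 MROs at D25 lay below all 6 at D20 (log2 change -1.43, SE 0.24, adjusted p = 4.27e-05). Such a lack of overlap held for only 4 of the 22 missed mitosis genes, against 72.0% of all genes missed by both steps. Mki67, the proliferation marker KI67, had 351 to 491 (median 434) normalized CPM at D20 and 58.8 to 323 (median 197) at D25, again with no overlap (log2 change -1.22, SE 0.24, adjusted p = 0.000333). For Top2a, the topoisomerase that untangles chromosomes, the values were 300 to 607 (median 533) normalized CPM at D20 and 71.9 to 405 (median 225) at D25, so that the groups overlapped, and the log2 fold change was -1.16 (adjusted p = 0.00115). Cdk1, the kinase that drives entry into mitosis, changed by -1.09 (adjusted p = 0.003), with 20.8 to 42.4 (median 32.7) normalized CPM at D20 and 6.14 to 31 (median 13.8) at D25. The kinetochore motor gene Cenpe changed by -1.30 (adjusted p = 0.000403) and Cdca8, a subunit of the chromosomal passenger complex, by -1.34 (adjusted p = 0.00116). The count of mitosis genes lower at D25 was 14 without D20 replicate 2 and 14 without D20 replicate 6. The count of those missed by both steps was 14 in the same cases and 11 without D25 replicate 2, and 26 were lower without D25 replicate 3.

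The sequence before the start of these genes also had features in common. In RefSeq promoter windows of GRCm38.p6 (300 bases, 250 before and 50 after the start that lies furthest upstream), CCAAT was found on either strand for 14 of 19 missed mitosis genes with a window (73.7%), compared with 39.1% of the 10909 windows of all genes tested. TTTGAA, a motif added after the values had been seen, was found for 13 of the 19 (68.4%), compared with 11.3%. Among the 24 windows of all mitosis genes tested, missed or not, CCAAT was found in 19 and TTTGAA in 18. Both motifs were thus common to the mitosis list and not particular to its missed genes. CCAAT and TTTGAA, each searched on both strands, can share no more than a single base, and a match is only a description of the window. The 150 bases before the start of 5 of these genes are given here because they belong to the members named above. Capitals mark CCAAT and TTTGAA or their reverse complements, and the sequences run 5′ to 3′ along the gene.
Cdk1: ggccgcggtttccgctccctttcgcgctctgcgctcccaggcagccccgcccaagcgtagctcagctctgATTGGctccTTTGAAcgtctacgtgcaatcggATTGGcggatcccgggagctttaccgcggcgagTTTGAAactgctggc
Mki67: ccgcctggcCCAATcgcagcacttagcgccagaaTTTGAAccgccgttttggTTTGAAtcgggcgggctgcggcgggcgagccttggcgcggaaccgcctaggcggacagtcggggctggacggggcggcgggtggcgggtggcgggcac
Top2a: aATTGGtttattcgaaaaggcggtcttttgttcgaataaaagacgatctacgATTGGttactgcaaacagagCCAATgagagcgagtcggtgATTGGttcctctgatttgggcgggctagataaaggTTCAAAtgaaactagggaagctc
Kif23: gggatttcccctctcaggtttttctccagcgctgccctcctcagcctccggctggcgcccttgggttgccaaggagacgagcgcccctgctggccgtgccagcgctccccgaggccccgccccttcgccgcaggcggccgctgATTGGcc
Cenpe: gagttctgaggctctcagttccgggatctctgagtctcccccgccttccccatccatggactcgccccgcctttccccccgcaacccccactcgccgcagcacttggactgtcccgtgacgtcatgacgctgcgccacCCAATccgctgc

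The windows lie at chr10:69352913-69353062 on the minus strand, chr7:135716380-135716529 on the minus strand, chr11:99024190-99024339 on the minus strand, chr9:61946800-61946949 on the minus strand and chr3:135212413-135212562 on the plus strand. Cdk1 held CCAAT, read on the reverse strand, starting 80 and 48 bases before the start, and TTTGAA at 71 and 15. Top2a held CCAAT on the gene's strand at 78 and on the reverse strand at 149, 98 and 58. Over all genes missed by both steps, these motifs were found for 43.4% (CCAAT) and 16.8% (TTTGAA) of 841 falling genes, and for 37.6% and 8.76% of 948 rising genes. Over all called genes, missed or not, they were found for 41.3% and 15.4% of 1199 falling and 37.6% and 9.41% of 1817 rising genes.

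Rod genes formed the contrast. All 18 called rod phototransduction genes (of 19 tested) were higher at D25 and none of them was missed, since each was called in at least 1 step. Their summed level was 2050 to 3760 CPM at D20 and 12100 to 14000 at D25. TAATCC, the motif of the photoreceptor factors of the Crx family, was found in 10 of 35 windows of rod and outer segment genes (28.6%), in 5.7% of all windows, and in 6.86% of those of the missed rising genes. The 150 bases before Cngb1, the second largest named rise, are printed with this motif in capitals (chr8:95306586-95306735 on the minus strand).
Cngb1: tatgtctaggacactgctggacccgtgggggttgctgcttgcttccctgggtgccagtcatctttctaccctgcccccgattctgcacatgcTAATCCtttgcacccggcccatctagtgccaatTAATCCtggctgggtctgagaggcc

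The remaining motifs, also searched on both strands, lay within a few percentage points of their share in all windows. TGCTGA, part of the sites of MAF-type factors such as NRL, was found for 15.1% of the missed rising and 15.9% of the missed falling genes, compared with 14.9% of all windows. TTTGGCGC, an E2F-type site, was found for 1.16% and 1.55%, compared with 1.02%, and the E-box CACGTG for 9.49% and 11.5%, compared with 10%.

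Of 34 DNA replication genes tested, 5 were lower and 1 was higher, where 10.4% of all genes tested were lower and 14.8% higher, and the median log2 fold change was -0.39. Missed by both steps were the licensing factor gene Cdt1 (log2 change -1.09, adjusted p = 0.00365), Mcm7 of the replicative helicase (log2 change -0.72, adjusted p = 2.29e-05), the clamp loader gene Rfc4 (log2 change -0.76, adjusted p = 0.00114) and the DNA polymerase gene Pola1 (log2 change -0.60, adjusted p = 0.000495). Mcm7 had 71.5 to 91.1 (median 86.7) normalized CPM at D20 and 41.1 to 59 (median 51.7) at D25, without overlap. Mcm3 was called in the first step (-0.93), and Rpa1, which coats single-stranded DNA, was the 1 gene that rose, by 0.72 in the second step. With annotated genes only in the fit, 12 replication genes were lower, and without D25 replicate 3 it was 9. Cdt1 lost its call without D20 replicate 3, D25 replicate 1 or D25 replicate 4 (adjusted p values of 0.0103 to 0.0123).

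Ribosomal protein genes fell as a block. Of 82 tested, 75 were lower and none was higher, and 33 of the 75 were missed by both steps. Over all genes tested, 10.4% were lower and 7.27% were lower and missed. The median log2 fold change of the ribosomal protein genes was -0.97. Their summed level went from 24600 to 32500 CPM at D20 (median 30700) through 15900 to 29900 at D22 (20800) to 11800 to 17100 at D25 (13600). No D25 MRO reached a D20 MRO. The 33 missed genes had reached a median of 50.2% of their change at D22, with median log2 fold changes of -0.42 and -0.45 in the steps. Without D22 replicate 6, whose summed level of 29900 CPM lay within the D20 range, the share was 63.7%, with steps of -0.55 and -0.33. Without D22 replicate 2 it was 43.7%. The split between the steps was not tested. Rplp0, a protein of the ribosomal stalk, had 124 to 177 (median 161) normalized CPM at D20 and 61.7 to 97.9 (median 71.3) at D25 (log2 change -1.08, SE 0.14, adjusted p = 1.25e-06). Ribosomal protein genes have many near-identical copies in the genome, and reads that align to more than 1 place were left out by the counting, so their levels are underestimates and uncertain.

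Translation factors followed in part. Of 36 tested, 13 were lower, 8 of them missed, and 3 were higher, 2 of them missed. Over all genes tested, 10.4% were lower, 14.8% higher and 7.75% higher and missed, so nothing is read from the number of rises. Eif3h of the initiation factor eIF3 had 181 to 236 (median 199) normalized CPM at D20 and 111 to 129 (median 118) at D25 (log2 change -0.76, SE 0.10, adjusted p = 1.85e-06), and Eif3a of the same complex 821 to 987 (median 859) normalized CPM at D20 and 376 to 674 (median 628) at D25 (log2 change -0.57, SE 0.10, adjusted p = 0.000141). The elongation factor gene Eef1g changed by -0.71 (adjusted p = 2.26e-05). In the opposite direction, Eif4g2, a relative of the cap-binding scaffold used in cap-independent initiation, had 762 to 898 (median 863) normalized CPM at D20 and 907 to 1100 (median 1030) at D25 (log2 change 0.27, SE 0.08, adjusted p = 0.00868). This call of Eif4g2 was close to the threshold and was lost without any 1 of 11 of the 12 MROs (adjusted p up to 0.0296, without D25 replicate 3).

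**Figure D3:**
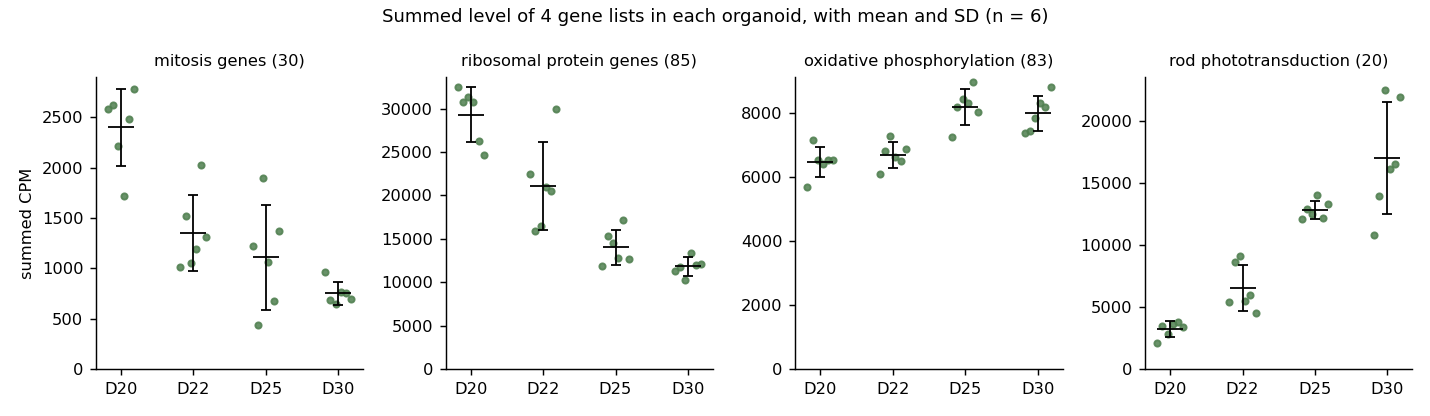
Each point is 1 MRO, and the y axis is the summed CPM of a gene list, with the mean and SD of 6 MROs as bars at D20, D22, D25 and D30. Mean summed levels of mitosis genes were 2400 at D20, 1350 at D22 and 1110 at D25, those of ribosomal protein genes 29300, 21100 and 14000, those of oxidative phosphorylation genes 6470, 6690 and 8190, and those of rod phototransduction genes 3180, 6510 and 12800.

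Subunits of oxidative phosphorylation, which make ATP in mitochondria, included many rises. Of 79 tested, 35 were higher, 18 of them missed, and 3 were lower, 2 of them missed, with a median log2 fold change of 0.36. The summed level was 5680 to 7150 CPM at D20, 6080 to 7270 at D22 and 7250 to 8950 at D25. The 20 missed genes had reached a median of 34.8% of their change at D22, and 19 of them had an unadjusted p below 0.05 in the second step, compared with 6 in the first. Without D22 replicate 3 the share was 20.2%, with a first step of 0.09 in place of 0.17, and without D20 replicate 1 the first step was 0.10. Cyc1 of complex III rose by 0.79 on the log2 scale (adjusted p = 0.00154) and Atp5g1 of the ATP synthase by 0.83 (adjusted p = 0.00136), both with overlapping groups. Slc25a4, which exchanges ADP and ATP across the inner mitochondrial membrane, had 561 to 671 (median 633) normalized CPM at D20 and 723 to 813 (median 738) at D25 (log2 change 0.27, SE 0.07, adjusted p = 0.0071), and its call was lost without any 1 of 10 MROs (adjusted p up to 0.0255, without D25 replicate 6). Cox6b2, an isoform known from testis, was a falling exception (log2 change -1.43, SE 0.24, adjusted p = 3.56e-05). Of 22 glycolysis genes, 2 fell and were missed, the glucose transporter gene Slc2a3 (log2 change -0.91, adjusted p = 0.00232) and Pgk1 (log2 change -0.71, adjusted p = 0.000293), and 3 rose. These counts were near the 10.4% lower and 14.8% higher over all genes tested.

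Most of the largest changes over the 5 days were called in a step as well. Genes named for the size of their change or for their abundance, here and in the next paragraphs, were chosen with the condition that the 6 MROs of D25 and the 6 of D20 did not overlap, so the absence of overlap is no result for them. The named rises of the highest rank were those of rod genes: Rcvrn (ENSMUSG00000020907, chromosome 11 from 67695326 to 67703333), a calcium sensor of photoreceptors, had 1.44 to 5.21 (median 2.47) normalized CPM at D20 and 151 to 209 (median 166) at D25 (log2 change 5.87, SE 0.32, adjusted p = 2.56e-13). The channel subunits Cngb1 and Cnga1 rose by 5.82 and 5.33 on the log2 scale, the phosphodiesterase gene Pde6a by 4.77, the matrix gene Impg1 by 4.36, and the synaptic calcium channel genes Cacna1f and Cabp4 by 4.36 and 4.32. The largest falls were those of the myosin-binding protein gene Mybpc1 (log2 change -4.29, adjusted p = 6.4e-08), the progenitor growth factor gene Fgf15 (log2 change -3.67, adjusted p = 1.26e-07), Fndc3c1 (-3.30), the protein kinase A inhibitor gene Pkib (-3.18), the cytoskeletal gene Ermn (-3.10), Foxn4 (-3.08), the kinase gene Stk33 (-2.97), and the retinoid genes Lrat (-2.90) and Crabp2 (-2.88). Foxn4, which specifies amacrine and horizontal cells, had 21.8 to 45.4 (median 26.3) normalized CPM at D20 and 1.22 to 6.84 (median 3.15) at D25. Each of the genes named in this rank was called in at least 1 step.

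Among the genes missed by both steps, the largest rises included genes of glia and inner retinal neurons. Gfap (ENSMUSG00000020932, chromosome 11 from 102887336 to 102900912), the intermediate filament of astrocytes and reactive Müller glia, had 0.269 to 19.1 (median 5.19) normalized CPM at D20 and 25.2 to 141 (median 90.6) at D25, and a median of 644 at D30 (log2 change 3.62, SE 0.81, adjusted p = 0.00119 from D20 to D25). Its steps were 0.77 in the first step and 2.85 in the second, with adjusted p values of 0.678 and 0.0145, and the values within each timepoint were widely spread. Without D20 replicate 4, the log2 fold change was 4.27. Slc6a11, a GABA transporter of glia, had 1.28 to 10.4 (median 3.37) normalized CPM at D20, 4.29 to 21.5 (median 9.39) at D22 and 20.2 to 28.5 (median 25.2) at D25 (log2 change 2.49, SE 0.37, adjusted p = 5.57e-06). Cebpd, a transcription factor of stress and inflammatory responses, had 0.832 to 4.16 (median 2.96) normalized CPM at D20 and 8.97 to 20.4 (median 11.7) at D25 (log2 change 2.12, SE 0.31, adjusted p = 6.39e-06). Selenbp1, a selenium-binding protein, had 1.4 to 5.57 (median 3.66) normalized CPM at D20 and 8.61 to 27.6 (median 12) at D25 (log2 change 2.02, SE 0.30, adjusted p = 6.6e-06), with D25 replicate 2 highest.

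Genes of neurons were among them too. Grm8 (ENSMUSG00000024211, chromosome 6 from 27275119 to 28135178), a presynaptic glutamate receptor, had 0.28 to 3.83 (median 1.89) normalized CPM at D20, 2.37 to 12.5 (median 3.86) at D22 and 8.42 to 17.8 (median 13.8) at D25 (log2 change 2.95, SE 0.42, adjusted p = 3.1e-06). Its steps were 1.67 in the first step and 1.28 in the second, with adjusted p values of 0.015 and 0.0255. Kcnh5, a potassium channel, had 0.769 to 5.34 (median 2.42) normalized CPM at D20 and 5.61 to 16.6 (median 9.56) at D25 (log2 change 2.06, SE 0.31, adjusted p = 8.81e-06), and Cbln2, a secreted synapse organizer, 0 to 3.43 (median 1.46) normalized CPM at D20 and 5.98 to 17.5 (median 11.1) at D25 (log2 change 2.98, SE 0.58, adjusted p = 0.000259). Necab1, a calcium-binding protein of neurons, had 0.14 to 6.8 (median 1.93) normalized CPM at D20 and 13.7 to 48.3 (median 16.2) at D25 (log2 change 2.95, SE 0.56, adjusted p = 0.000169), and its highest value was in D25 replicate 1, the MRO with the highest level of cortex-type neuron genes. The part of other cell types of that MRO in the level of Necab1 was not tested.

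The largest falls among the missed genes included factors of early neurons and progenitors. Olig2 (ENSMUSG00000039830, chromosome 16 from 91225457 to 91228677), a transcription factor of neurogenic progenitors, had 24.2 to 39.4 (median 26.9) normalized CPM at D20, 12 to 18 (median 15.8) at D22 and 5.53 to 11 (median 6.91) at D25 (log2 change -1.95, SE 0.39, adjusted p = 0.000312). Pou4f1 (ENSMUSG00000048349, chromosome 14 from 104461676 to 104467999), a transcription factor of ganglion cells, had 8.32 to 31.7 (median 19.6) normalized CPM at D20 and 2.66 to 6.69 (median 5.86) at D25 (log2 change -1.91, SE 0.34, adjusted p = 7.3e-05), and stood at a median of 2.28 at D30. Lin28b, which blocks let-7 microRNA maturation and marks early developmental time, had 7.04 to 14.8 (median 9.72) normalized CPM at D20 and 1.66 to 4.95 (median 3.14) at D25 (log2 change -1.66, SE 0.39, adjusted p = 0.00172). Sfrp2, a secreted Wnt antagonist of progenitors, had 21.8 to 31.3 (median 23.6) normalized CPM at D20 and 4.05 to 12.1 (median 7.37) at D25 (log2 change -1.65, SE 0.27, adjusted p = 3.25e-05), and Eya2, a transcriptional cofactor of eye and ear development, 9.4 to 24.2 (median 16.4) normalized CPM at D20 and 3 to 6.48 (median 4.06) at D25 (log2 change -1.93, SE 0.31, adjusted p = 1.85e-05).

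Further falls concerned stress, repair and signalling genes. Eda2r (ENSMUSG00000034457, chromosome X from 97333840 to 97377216), a receptor that p53 induces, had 46.7 to 116 (median 63.3) normalized CPM at D20, 15.6 to 70.8 (median 28.3) at D22 and 12.4 to 23.1 (median 16.6) at D25, the largest fall of this rank (log2 change -2.05, SE 0.29, adjusted p = 3.87e-06). Its steps were -1.02 in the first step and -1.03 in the second, with adjusted p values of 0.0319 and 0.0176. Pidd1, another gene induced by p53, had 7.87 to 21.6 (median 11) normalized CPM at D20 and 2.44 to 5.41 (median 3.74) at D25 (log2 change -1.69, SE 0.25, adjusted p = 5.55e-06). Neil3, a DNA glycosylase of dividing cells, had 15.1 to 21.4 (median 17.7) normalized CPM at D20 and 1.74 to 10 (median 5.1) at D25 (log2 change -1.75, SE 0.27, adjusted p = 1.26e-05). The matrix protease gene Mmp2 changed by -1.80 (adjusted p = 1.12e-05) and Tshr, which encodes the thyrotropin receptor, by -1.68 (adjusted p = 7.01e-06), with 18.5 to 23.2 (median 20.8) normalized CPM at D20 and 4.18 to 8.16 (median 6.65) at D25.

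**Figure D4:**
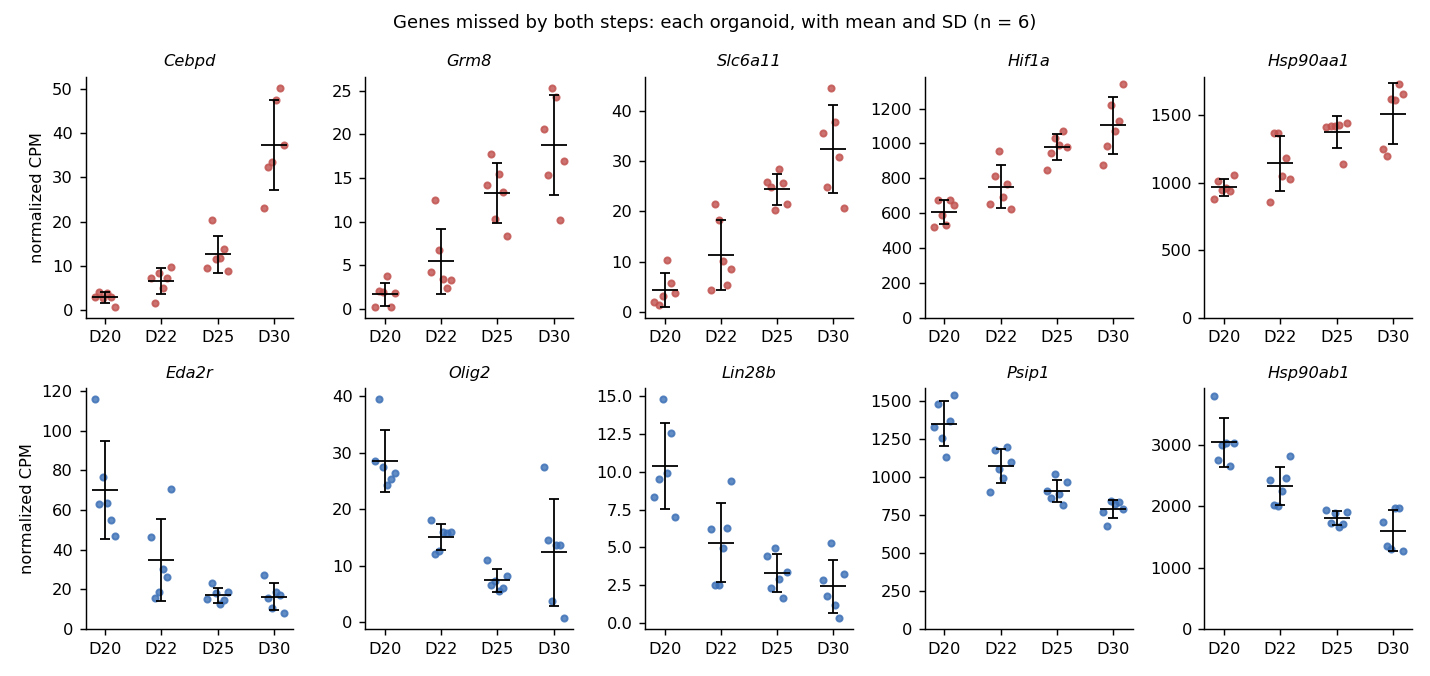
Each point is 1 MRO, with normalized CPM on the y axis and the mean and SD of 6 MROs as bars at D20, D22, D25 and D30, for 5 rising (red) and 5 falling (blue) genes missed by both steps. In each panel the D22 MROs lie between or overlap those of D20 and D25, and the 6 MROs of D25 do not overlap with the 6 of D20, as the choice of these genes required.

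Among the most abundant missed genes, chaperones of the HSP90 family moved in opposite directions. Hsp90ab1, the constitutive cytosolic form, had 2660 to 3800 (median 3020) normalized CPM at D20, 2000 to 2830 (median 2340) at D22 and 1660 to 1940 (median 1820) at D25 (log2 change -0.75, SE 0.11, adjusted p = 3.62e-06). Its inducible counterpart Hsp90aa1 had 878 to 1060 (median 950) normalized CPM at D20 and 1140 to 1440 (median 1420) at D25 (log2 change 0.51, SE 0.10, adjusted p = 0.000319), and Hsp90b1 of the endoplasmic reticulum 976 to 1140 (median 1080) normalized CPM at D20 and 1280 to 1680 (median 1440) at D25 (log2 change 0.43, SE 0.08, adjusted p = 0.00013). Hsp90aa1 was lowest in D25 replicate 5, at 1140 normalized CPM.

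Other abundant rises concerned the cytoskeleton, oxygen sensing and neuronal fate. Epb41, which links spectrin and actin to the membrane, had 494 to 651 (median 623) normalized CPM at D20 and 925 to 1130 (median 1070) at D25 (log2 change 0.81, SE 0.12, adjusted p = 4.97e-06). Hif1a, the oxygen-regulated transcription factor, had 522 to 674 (median 617) normalized CPM at D20, 626 to 959 (median 729) at D22 and 850 to 1070 (median 987) at D25 (log2 change 0.69, SE 0.10, adjusted p = 5.69e-06), with a steady course at the RNA level. Map1b, a microtubule protein of growing axons, had 1060 to 1450 (median 1320) normalized CPM at D20 and 1480 to 2850 (median 1780) at D25 (log2 change 0.58, SE 0.13, adjusted p = 0.00105). Neurod1, a transcription factor that rods and amacrine cells use, had 361 to 496 (median 432) normalized CPM at D20, 404 to 832 (median 637) at D22 and 513 to 851 (median 585) at D25, so that nearly all of its change came before D22 (log2 change 0.55, SE 0.13, adjusted p = 0.0026). Apc, a regulator of Wnt signalling and microtubules, changed by 0.62 (adjusted p = 0.00374), and Ddb1, an adaptor of a ubiquitin ligase, by 0.25 (adjusted p = 0.00598). The calls of Neurod1 (without D25 replicate 5, adjusted p = 0.0122), Apc (without D20 replicate 1 or D25 replicate 1, 0.014 and 0.0164) and Ddb1 (without any 1 of 8 MROs, up to 0.0213) were lost.

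The abundant falls included genes of chromatin and RNA handling. Psip1, a chromatin reader that supports transcription, had 1130 to 1540 (median 1350) normalized CPM at D20, 903 to 1200 (median 1070) at D22 and 814 to 1020 (median 899) at D25 (log2 change -0.57, SE 0.08, adjusted p = 3.63e-06). Ddx3x, an RNA helicase, had 932 to 1130 (median 1030) normalized CPM at D20 and 692 to 867 (median 768) at D25 (log2 change -0.41, SE 0.07, adjusted p = 7.66e-05), and Hnrnph1, a splicing regulator, 902 to 1120 (median 1010) normalized CPM at D20 and 715 to 892 (median 743) at D25 (log2 change -0.38, SE 0.08, adjusted p = 0.000537). Marcks, a membrane-bound actin regulator of growing cells, had 794 to 1060 (median 912) normalized CPM at D20 and 493 to 631 (median 595) at D25 (log2 change -0.68, SE 0.14, adjusted p = 0.000456). Pcm1, a scaffold of centriolar satellites, changed by -0.35 (adjusted p = 0.000412), Ttc3, a ubiquitin ligase, by -0.37 (adjusted p = 0.00402), Serbp1, which binds ribosomes, by -0.26 (adjusted p = 0.00365) and Ptma, a small nuclear protein, by -0.64 (adjusted p = 0.00014). Serbp1 and Ptma have near-identical copies and are uncertain. Ttc3 lost its call without D20 replicate 6, D25 replicate 2 or D25 replicate 5, and Serbp1 without D20 replicate 2 or D25 replicate 5 (adjusted p values of 0.0107 to 0.0137).

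Progenitor and neurogenic genes were mostly lower and mostly called in a step. Of 25 tested, 20 were lower and 2 were higher, and 8 were missed, with a median log2 fold change of -1.20. The shares over all genes tested were 10.4% lower, 14.8% higher and 15.0% missed, so nothing is read from the number of rises. Among the missed falls, the eye field gene Six6 had 99.7 to 138 (median 128) normalized CPM at D20 and 53.2 to 98.9 (median 73.7) at D25 (log2 change -0.70, SE 0.14, adjusted p = 0.00035), and the glycosyltransferase gene Mfng, which tunes Notch, changed by -0.94 (adjusted p = 0.00036). Both missed rises were of genes that act just after cell cycle exit, Neurod1 and Insm1. Insm1, a zinc-finger repressor of newborn neurons, had 29.2 to 45.5 (median 37.2) normalized CPM at D20, 35.5 to 71.7 (median 55.8) at D22 and 60.5 to 97.4 (median 75.1) at D25 (log2 change 1.05, SE 0.14, adjusted p = 1.54e-06), and stood at a median of 39.8 at D30.

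Structural genes of the photoreceptor were rarely missed. Over all genes tested, 14.8% were higher and 7.75% were higher and missed. Of 24 outer segment and connecting cilium genes, 21 were higher, 3 of them missed. Among these, Fscn2, an actin bundler of photoreceptors, was near the detection limit at D20, with 0 to 0.569 (median 0.13) normalized CPM at D20 and 0.794 to 1.67 (median 1.39) at D25 (log2 change 2.55, SE 0.64, adjusted p = 0.00335). Cnnm4, a magnesium transporter, had 9.02 to 13.8 (median 11.3) normalized CPM at D20 and 17.2 to 24.7 (median 24.1) at D25 (log2 change 1.02, SE 0.18, adjusted p = 7.43e-05), and Nphp4 of the transition zone 5.67 to 8.74 (median 7.3) normalized CPM at D20 and 12 to 17.4 (median 12.8) at D25 (log2 change 0.89, SE 0.18, adjusted p = 0.000427). Transport along the cilium gave 5 more examples, since 18 of 28 intraflagellar transport and BBSome genes were higher, none was lower and 5 were missed. Ttc8, also known as Bbs8, had 58.8 to 88.3 (median 73.9) normalized CPM at D20, 81.5 to 160 (median 97.2) at D22 and 132 to 165 (median 149) at D25 (log2 change 1.01, SE 0.14, adjusted p = 2.41e-06), and Ift88, Wdr19, Ift80 and Ift172 changed by 0.89, 0.77, 0.54 and 0.52 (adjusted p values of 2.53e-05, 2.73e-05, 0.000287 and 7.98e-05). All 5 were free of overlap between D20 and D25, as were 72.0% of all missed genes and 22.6% of all genes tested. The 5-day test itself favours this, so nothing is read from it.

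All 3 called cone genes were missed by both steps. Of 10 tested, 2 were higher and 1 was lower, where 14.8% of all genes tested were higher and 10.4% lower. Among all genes called from D20 to D25, 59.6% were missed, so nothing is read from these 3 calls. Gnb3, a subunit of the transducin used by cones and ON bipolar cells, had 110 to 147 (median 135) normalized CPM at D20 and 195 to 317 (median 216) at D25 (log2 change 0.81, SE 0.16, adjusted p = 0.000336), and Thrb, the thyroid hormone receptor that directs cone opsin choice, 59.9 to 93.8 (median 77.8) normalized CPM at D20 and 103 to 126 (median 109) at D25 (log2 change 0.51, SE 0.12, adjusted p = 0.00164). Pde6c, the cone phosphodiesterase, had 29.4 to 52.8 (median 45.5) normalized CPM at D20 and 18.2 to 25.7 (median 22.1) at D25 and fell (log2 change -0.97, SE 0.18, adjusted p = 0.000106). Of 14 photoreceptor transcription factors, 9 were higher and 3 were lower, and the 3 missed ones were Neurod1, Thrb and Mef2d, which rose from 61.3 to 105 normalized CPM in the medians (log2 change 0.88, SE 0.14, adjusted p = 1.65e-05).

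**Figure D5:**
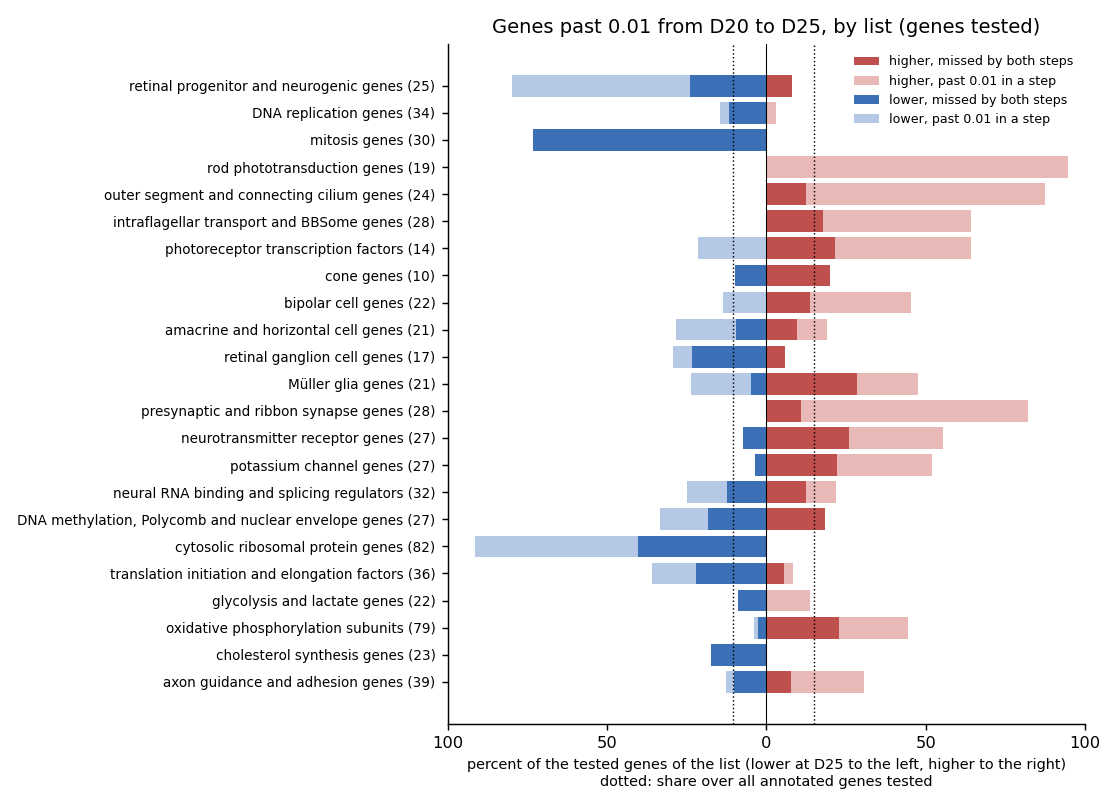
Bars give, for 23 gene lists with the number of genes tested in brackets, the percent of genes higher (red, to the right) or lower (blue, to the left) at D25, dark where they were missed by both steps and light where a step called them. Dotted lines mark 14.8% higher and 10.4% lower over all annotated genes tested, and mitosis genes, with 22 of 30 lower, are dark throughout, while rod phototransduction genes, with 18 of 19 higher, are light throughout.

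Müller glia genes included several rises that were missed by both steps. Among all genes tested, 14.8% were higher, 10.4% lower and 15.0% missed. Of the 21 Müller glia genes tested, 10 were higher, 6 of them missed, and 5 were lower, 1 of them missed. Rlbp1 (CRALBP), which binds retinoids for the visual cycle, had 19.5 to 56.5 (median 30.3) normalized CPM at D20, 35.7 to 86.1 (median 58.8) at D22 and 73.6 to 116 (median 97.7) at D25 (log2 change 1.5, SE 0.21, adjusted p = 2.13e-06). Ttyh1, a membrane protein of glia and progenitors, had 77.3 to 107 (median 84.5) normalized CPM at D20 and 126 to 171 (median 146) at D25 (log2 change 0.78, SE 0.13, adjusted p = 5.22e-05), and Gpr37, an orphan receptor, 69 to 92.9 (median 78.7) normalized CPM at D20 and 97.4 to 176 (median 131) at D25 (log2 change 0.71, SE 0.15, adjusted p = 0.000843). At D30 the medians of these 3 genes were 134, 211 and 195. In the second step, which covers 3 of the 5 days, Ttyh1 and Gpr37 had log2 fold changes of 0.49 and 0.58. The split between the steps was not tested.

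Genes of the synapse rose in large numbers and seldom went unseen in the steps. Across all genes tested, 14.8% were higher, 10.4% lower and 15.0% missed. Of 28 presynaptic and ribbon synapse genes, 23 were higher, none was lower and 3 were missed. Ctbp2, which encodes the ribbon protein RIBEYE, had 84.3 to 102 (median 101) normalized CPM at D20 and 120 to 154 (median 134) at D25 (log2 change 0.46, SE 0.09, adjusted p = 0.000514), and Pclo, a scaffold of the active zone, 118 to 162 (median 129) normalized CPM at D20 and 179 to 274 (median 225) at D25 (log2 change 0.75, SE 0.12, adjusted p = 1.85e-05). Syn1, a vesicle protein of conventional synapses, rose from a low level, with 1.12 to 4.06 (median 1.97) normalized CPM at D20 and 3.21 to 12.5 (median 4.46) at D25 (log2 change 1.32, SE 0.34, adjusted p = 0.00466). Its highest value was in D25 replicate 1, and without that MRO the log2 fold change was 0.91 (adjusted p = 0.0368). It also missed the threshold without D20 replicates 1, 2, 5 or 6.

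Neurotransmitter receptors and channels included many rises. Of 27 neurotransmitter receptor genes, 15 were higher, 7 of them missed, and 2 were lower, both missed. Over all genes tested, 14.8% were higher, 10.4% lower and 7.27% lower and missed. Nothing is therefore read from the few falls here or among potassium channels. Of the AMPA receptor genes, Gria4 had 17.3 to 41.8 (median 27.7) normalized CPM at D20 and 48.9 to 98.5 (median 74.9) at D25 (log2 change 1.36, SE 0.22, adjusted p = 2.96e-05) and Gria3 10.2 to 17.8 (median 14.8) normalized CPM at D20 and 26.3 to 36.3 (median 29.8) at D25 (log2 change 1.06, SE 0.18, adjusted p = 5.43e-05). Gabra3, a GABA-A receptor subunit, had 3.16 to 10.6 (median 5.78) normalized CPM at D20 and 12.5 to 24.5 (median 15.3) at D25 (log2 change 1.40, SE 0.27, adjusted p = 0.000178). The NMDA receptor genes Grin1 (log2 change 1.17, adjusted p = 0.00272) and Grin2b (log2 change 1.39, adjusted p = 0.00149) rose with overlapping groups. Grin2b was highest in D25 replicate 1, at 189 against 48.5 to 92.1 normalized CPM in the other D25 MROs, and without that MRO neither passed, with adjusted p values of 0.0144 and 0.0108. Chrna3, a nicotinic receptor subunit of early retinal circuits, fell (log2 change -1.19, SE 0.26, adjusted p = 0.00103). Of 27 potassium channel genes, 14 were higher, 6 of them missed, and 1 was lower, which was missed as well. Kcnk2, a background potassium channel, had 0.35 to 1.58 (median 1.34) normalized CPM at D20 and 3.49 to 9.57 (median 5.16) at D25 (log2 change 2.34, SE 0.42, adjusted p = 8.67e-05).

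Genes of inner retinal neurons split in both directions, where 14.8% of all genes tested were higher and 10.4% lower. Of 17 ganglion cell genes, 5 were lower, 4 of them missed, and 1 was higher and missed. Pou4f2 had 3.96 to 9.37 (median 6.26) normalized CPM at D20 and 0 to 1.95 (median 1.61) at D25 (log2 change -2.36, SE 0.45, adjusted p = 0.000173), and the RNA-binding protein gene Rbpms 4.61 to 9.46 (median 7.54) normalized CPM at D20 and 1.71 to 5.79 (median 2.5) at D25 (log2 change -1.18, SE 0.28, adjusted p = 0.00236). The neurofilament genes moved apart, with Nefm falling from 77.1 to 32.4 normalized CPM in the medians (log2 change -1.05, SE 0.24, adjusted p = 0.00177) and Nefh rising from 6.46 to 10.7 (log2 change 0.93, SE 0.23, adjusted p = 0.00307). Of 21 amacrine and horizontal cell genes, 4 were higher, 2 of them missed, and 6 were lower, 2 of them missed. Tfap2a, a factor of amacrine cells, rose with 1.68 to 5.74 (median 4.06) normalized CPM at D20 and 5.61 to 19.2 (median 10.5) at D25, and its call was lost without D25 replicate 5 (adjusted p = 0.0128). Prox1, a factor of horizontal and some amacrine and bipolar cells, had 55 to 80.1 (median 66.5) normalized CPM at D20 and 32.5 to 51.1 (median 39.1) at D25 (log2 change -0.76, SE 0.12, adjusted p = 1.47e-05), and Ebf3 changed by -1.05 (adjusted p = 0.00019). Among 22 bipolar cell genes, 10 were higher, 3 of them missed, and 3 were lower; Prdm8 was a missed rise from 8.22 to 16.1 in the medians (log2 change 1.05, SE 0.19, adjusted p = 0.000134).

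Chromatin regulators showed a mix of rises and falls. Of 27 genes of DNA methylation, Polycomb and the nuclear envelope, 5 were higher and 9 were lower, and 10 of the 14 were missed. Over all genes tested, 14.8% were higher, 10.4% lower and 15.0% missed, so the number of rises was near that share. Hmgb2, a chromatin protein of dividing cells, had 58.9 to 92.6 (median 82.4) normalized CPM at D20, 25.9 to 66.1 (median 42.7) at D22 and 18.7 to 40.3 (median 26.4) at D25 (log2 change -1.5, SE 0.20, adjusted p = 9.77e-07). The DNA methyltransferases moved apart, with Dnmt3b falling from 8.95 to 2.86 normalized CPM in the medians (log2 change -1.31, SE 0.27, adjusted p = 0.000475) and Dnmt3a rising from 352 to 473 (log2 change 0.41, SE 0.08, adjusted p = 0.000166). Tet3, which oxidizes methylcytosine, had 127 to 144 (median 135) normalized CPM at D20 and 195 to 249 (median 202) at D25 (log2 change 0.64, SE 0.08, adjusted p = 5.51e-07). Lbr, the lamin B receptor that holds heterochromatin at the nuclear rim, had 39.5 to 61.3 (median 54) normalized CPM at D20 and 29.6 to 36.4 (median 32.5) at D25 (log2 change -0.64, SE 0.12, adjusted p = 0.000136). Hmgn2 rose (log2 change 1.52, SE 0.36, adjusted p = 0.00201), but has many near-identical copies, and without D25 replicate 5 its adjusted p was 0.0123.

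Of 32 RNA-binding regulators of neurons tested, 7 were higher and 8 were lower, with 4 missed on each side, where 7.75% of all genes were missed and higher and 7.27% missed and lower. Ptbp2, a splicing repressor of young neurons, had 369 to 419 (median 388) normalized CPM at D20 and 263 to 289 (median 276) at D25 (log2 change -0.51, SE 0.09, adjusted p = 9.89e-05), while Srrm3, which promotes neuronal microexons, had 30.9 to 36.2 (median 33.3) normalized CPM at D20 and 46.4 to 53.3 (median 48.7) at D25 (log2 change 0.56, SE 0.14, adjusted p = 0.00233) and Msi2 changed by 0.32 (adjusted p = 0.00236). Lin28a rose from a low level, with 0.403 to 1.14 (median 0.813) normalized CPM at D20 and 1.53 to 3.54 (median 2.49) at D25 (log2 change 1.64, SE 0.39, adjusted p = 0.00228), in the opposite direction to its paralog Lin28b. In lipid metabolism, 4 of 23 cholesterol synthesis genes were lower, none was higher and all 4 were missed, among them the regulators Srebf2 (log2 change -0.75, adjusted p = 0.000624) and Insig1 (log2 change -0.87, adjusted p = 0.000213) and the enzyme gene Lss (log2 change -0.62, adjusted p = 0.000944). Over all genes tested, 10.4% were lower, 14.8% higher and 15.0% missed, so the number missed was near that share. Insig1 and Lss were highest within D25 in replicate 1. Of 39 axon guidance and adhesion genes, 12 were higher and 5 were lower, and 7 were missed, of which the falls and the missed genes were near the shares over all genes (10.4% and 15.0%). Among the missed genes were Robo1 (log2 change 1.26, adjusted p = 0.00154) and Dscam (log2 change 0.74, adjusted p = 0.000859), which rose, and Efnb1 (log2 change -0.78, adjusted p = 0.000569) and Efnb2 (log2 change -0.90, adjusted p = 0.000409), which fell.

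Markers of other cell types gave few calls, but the lists were short, and over all genes tested 14.8% were higher and 10.4% lower. Of 8 pigment epithelium genes tested, 1 was higher and 1, Lrat, was lower, and the summed level was 163 to 278 CPM at D20 and 86.4 to 691 at D25. Of 11 cortex-type neuron genes, 1 was higher and 1 was lower, and the sums were 141 to 419 and 231 to 736 CPM. Of 8 mesenchyme genes, 2 were higher and 1 was lower (10.3 to 34.8 and 13.8 to 152 CPM), and of 2 blood and endothelium genes tested, 1 was called each way (260 to 347 and 164 to 240 CPM). Of 6 oligodendrocyte lineage genes, 1 was lower, and none of 3 pluripotency genes was called. The summed level of pigment epithelium, cortex-type and mesenchyme genes thus spanned a wider range at D25 than at D20, and the part of these cells in the changes above was not tested.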

How the data were processed

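RNA-seq libraries were prepared from total RNA of single MROs, after depletion of ribosomal RNA, with a strand-specific kit. The values are raw read counts per gene, deposited by the authors as 1 table per MRO and made with bcl2fastq 2.20, cutadapt 1.5, FastQC 0.11.2, HISAT2, SAMtools 1.1, StringTie 1.3.3 and HTSeq 0.6.1 on GRCm38. Whether counting used the strand is not given in the sources used here, so overlapping and antisense genes are uncertain. Reads with more than 1 alignment were not counted, so genes with near-identical copies are uncertain too. Rows that name no gene stayed out of library sizes and tests. Each table held 126602 features, of which 46603 were annotated genes and the others loci assembled from the reads.

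From these counts, all 24 MROs of D20, D22, D25 and D30 were fitted together with edgeR 4.0.16 in R 4.3.3 (TMM scaling, quasi-likelihood test). Features whose base mean was under 10 were left out, which kept 46949, 16253 of them annotated genes, and p values were adjusted by Benjamini-Hochberg over all 46949. The threshold was 0.01. DESeq2 1.42.0 served as an alternative, and other alternatives changed the scaling, the filter, the features, the MROs fitted, the step threshold and the replicate block. The script was tested on simulated counts. Tables and plots were made with Python 3.11.15, pandas 2.3.3 and matplotlib 3.10.9. None of the 45 pairs of libraries compared, all within D20, D22 or D25, agreed within sampling noise. All MROs came from 1 experiment, so p values measure the spread between MROs of that experiment.

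Members and gene lists were chosen with earlier results of these data known. Among genes without overlap between the groups and whose mean normalized count reached 100, the 10 largest rises and falls were taken, over all genes and over missed genes. To these were added the 10 most abundant missed rises and falls, list members, and the 3 genes nearest to either side of the threshold. Unless stated otherwise, genes named kept their 5-day call without each single D20 or D25 MRO. Unnamed loci and Gm or Rik genes were counted only, and some genes the rule names are not reported here. Promoter windows are from RefSeq (GRCm38.p6). Counting error alone sets the 3-count floor.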

Additional observations from a re-analysis of the deposited data

Results flagged for a closer look

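Among 284 groups of 6 values examined (133 genes and 9 summed lists, at D20 and at D25), 29 held a highest or lowest MRO whose gap to the next exceeded Dixon's critical value for 6 samples, where chance gives about 1 group in 20. Values are normalized CPM, with the range of the other 5 MROs of that timepoint.

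In D25 replicate 1, 7 values stood apart: Necab1 at 48.3 (13.7 to 24.9), Apc at 914 (604 to 705), Syn1 at 12.5 (3.21 to 5.55), Grin2b at 189 (48.5 to 92.1), Insig1 at 38.1 (21.6 to 27.2) and Lss at 98.4 (56.6 to 71.5) were high, and Pou4f1 at 2.66 (5.31 to 6.69) was low. In D25 replicate 5, 8 values stood apart. Of these, Mfng at 9.15 (5.25 to 6.58), Nphp4 at 17.4 (12 to 13.4), Gnb3 at 317 (195 to 235), Tet3 at 249 (195 to 213) and Hmgn2 at 186 (48.1 to 82.5) were high, whereas Hsp90aa1 at 1140 (1410 to 1440), Eif3a at 376 (567 to 674) and Pcm1 at 558 (639 to 673) were low. D25 replicate 3 was high for Fgf15 at 14.5 (2.51 to 6.47) and Cdk1 at 31 (6.14 to 15.2). D25 replicate 2 was high for Selenbp1 at 27.6 (8.61 to 15.2) and low for Cnnm4 at 17.2 (22.7 to 24.7).

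At D20, replicate 1 was high for Foxn4 at 45.4 (21.8 to 29.6), Hsp90ab1 at 3800 (2660 to 3030) and Mcm3 at 41.2 (31 to 33), and low for Epb41 at 494 (595 to 651) and Ctbp2 at 84.3 (99.3 to 102). Replicate 6 was high for Eif3a at 987 (821 to 872) and for the summed level of cortex-type neuron genes at 419 CPM (141 to 238). Olig2 was high in replicate 2 at 39.4 (24.2 to 28.5), Pclo in replicate 4 at 162 (118 to 133), and Dnmt3b was low in replicate 5 at 5.69 (8.39 to 9.92).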

How the results depend on the processing

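Requiring a change of at least 1.5-fold left 741 genes higher and 367 lower over the 5 days. Requiring an adjusted p of at least 0.05 in both steps left 597 missed genes higher and 648 lower, and requiring an unadjusted p of at least 0.05 left 31 and 42. With annotated genes only, 12 DNA replication genes were lower. Leaving out single MROs gave 2058 to 2296 genes higher, 1425 to 1651 lower, 1050 to 1506 missed and higher, 959 to 1322 missed and lower, 14 to 26 mitosis genes lower, 11 to 24 mitosis genes missed and 4 to 9 replication genes lower; the median share of change at D22 was 44.7% to 49.4%. DESeq2's test called 4558 genes, 4061 of them shared, and 2314 missed genes, 1892 of them shared. In all, 1004 genes were missed without each single MRO. Under every alternative that tested both steps, 698 were missed, leaving aside the 1.5-fold requirement and the stricter step thresholds. Of the 133 genes named, 15 lost the 5-day threshold in at least 1 of the alternatives applied to them, and none reversed. The 1.5-fold requirement, the fit of D20, D22 and D25 only, and the fits without a D22 MRO were not among these. Whether each named gene stayed missed by both steps was not counted. The replicate numbers did not pair the samples, since same-numbered MROs of D20 and D25 correlated at -0.152 to 0.185 in their deviations. With the replicate block, 2319 genes were higher and 1634 lower, 1237 and 1208 were missed, and 17 mitosis genes were lower. At the depth of these libraries, genes under the base mean of 10 were not tested.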
